A study of Homo sapiens with 6 samples.

Results

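SAA1 and SAA2 encode the 2 inducible serum amyloid A proteins, and they are 2 of the 8529 genes in the expression table of SW480 cells grown on soft or stiff hydrogel. The pair was chosen by its difference between 25 kPa and 2 kPa in these same libraries, so its levels and that difference are given as a description, with no test. SW480 is a human colorectal cancer cell line, and all 6 libraries came from wild-type SW480 cells kept in L-15 medium with fetal bovine serum and antibiotics. Cells were seeded on hydrogel-coated plates of 2 kPa, the soft condition, or 25 kPa, the stiff condition, and total RNA was taken after 72 h, with 3 libraries at each stiffness. SW480 is 1 cell line, and nothing in the labels says whether the triplicate wells were separate cultures, so the spread between libraries may be technical. Levels are FPKM, fragments scaled for transcript length and library size, with 1 value per gene symbol. The table holds 0 values at 0, so it lists no gene at 0 FPKM in any library. All genes, below, means the 8529 that it lists, and a gene left out of it could not be ranked or counted. Some genes that every cell uses were listed near 0, among them the ribosomal protein genes RPS24 (mean 0.172 FPKM) and RPL28 (0.61 FPKM), beside RPL4 (1093 FPKM) and RPS19 (899 FPKM), all 4 named after their values were seen. The level of a gene relative to other genes, ranks included, is therefore the value the table lists and may not be the level of all its RNA.

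Serum amyloid A proteins are small apolipoproteins that travel on high-density lipoprotein. They are among the most strongly induced proteins of the acute-phase response, in which hepatocytes answer interleukin-1, interleukin-6 and tumour necrosis factor through NF-kB, C/EBP factors and STAT3. Epithelial cells of the gut also make them, where they carry retinol and act on immune cells and bacteria. Fragments of SAA1 and SAA2 protein form the deposits of AA amyloidosis.

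The pair lies close together on chromosome 11 in the GRCh38 annotation of GENCODE. SAA1 runs from 18266174 to 18269977 on the forward strand, and its 4 annotated transcripts are all protein-coding. SAA2 runs from 18239223 to 18248643 on the reverse strand, with 6 protein-coding transcripts. A read-through gene, SAA2-SAA4, runs from 18231423 to 18248635 on the same strand as SAA2 and shares its sequence. The coding sequences of SAA1 and SAA2, each 366 bases without the stop codon, were identical at 355 positions (97.0%) and aligned without a gap. Of the 11 differing positions, 9 lay in the 136 coding bases of exon 4, against 1 of 91 in exon 2 and 1 of 139 in exon 3. The stretch below is the part of exon 4 that holds 8 of these positions, coding bases 231 to 320 counted from the first base of the start codon, and it is shown because it is where the coding sequences of the 2 genes can best be told apart. The SAA1 stretch is chr11:18269717-18269806 on the forward strand and the SAA2 stretch is chr11:18245426-18245515 on the reverse strand, both in GRCh38, read 5′ to 3′ from the GENCODE transcripts with the differing bases in capitals.
SAA1: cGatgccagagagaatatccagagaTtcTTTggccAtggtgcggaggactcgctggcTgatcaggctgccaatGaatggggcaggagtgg
SAA2: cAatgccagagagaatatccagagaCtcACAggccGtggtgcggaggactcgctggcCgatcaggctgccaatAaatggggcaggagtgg

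Outside that stretch long runs are shared, the longest being 186 bases. Of the 566 windows of 50 bases in the SAA1 transcript, 193 (34.1%) occurred letter for letter in SAA2, and of the 514 windows of SAA2, 193 (37.5%) occurred in SAA1. At 100 bases the shares were 16.9% and 18.8%. SAA2 also shared 36.6% of its 100-base windows with SAA2-SAA4. No window of either gene occurred in SAA4, the constitutive member of the family (0 of 566 and 0 of 514 at 50 bases). How reads that match more than 1 of these genes were divided is not given in the sources used here, so the level of each gene alone is less certain than the level of the pair.

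SAA1 stood at 9.75, 10.98 and 16.23 FPKM in the soft libraries (2 kPa) and at 99.92, 89.27 and 85.45 FPKM in the stiff libraries (25 kPa). Every stiff library was above every soft library, and the gap between the groups, from 16.23 to 85.45 FPKM, was 5.26-fold. Within a group the highest library was 1.66-fold above the lowest at 2 kPa and 1.17-fold at 25 kPa. The 9 pairings of a stiff with a soft library gave folds from 5.26 to 10.2, with a median of 8.13.

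SAA2 was measured at 1.90, 3.40 and 3.67 FPKM at 2 kPa and at 24.95, 20.47 and 17.26 FPKM at 25 kPa. The groups again did not overlap, and the lowest stiff library was 4.7-fold above the highest soft library. The spread within a group was wider than for SAA1, at 1.93-fold for 2 kPa and 1.45-fold for 25 kPa, and the 9 pairings gave folds from 4.7 to 13.1. As a difference of mean log2(FPKM + 1), a scale on which a low gene appears to change less than it does, 25 kPa exceeded 2 kPa by 2.82 (SE 0.18) for SAA1 and 2.47 (SE 0.22) for SAA2. A bulk library cannot tell more cells with SAA RNA from more SAA RNA in each cell.

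**Figure D1:**
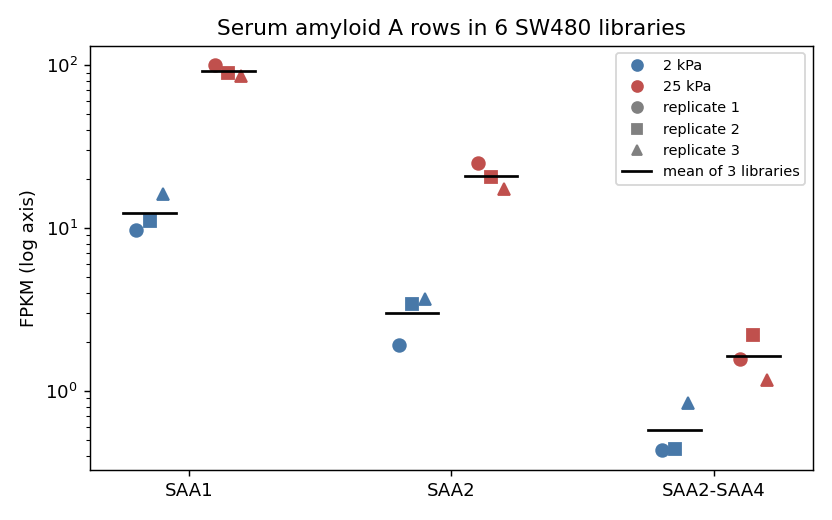
FPKM (log axis) of SAA1, SAA2 and the read-through gene SAA2-SAA4 in each of the 3 libraries at 2 kPa and the 3 libraries at 25 kPa, with 1 point for each library and a bar at each group mean. SAA1 and SAA2 show a wide gap between the stiffness levels, from 16.23 to 85.45 FPKM and from 3.67 to 17.26 FPKM, and SAA2-SAA4 stays below 2.2 FPKM.

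SAA1 exceeded SAA2 in all 6 libraries. The ratio of SAA1 to SAA2 FPKM was 5.13, 3.23 and 4.42 at 2 kPa and 4.00, 4.36 and 4.95 at 25 kPa. The soft and stiff ratios overlapped, with a soft mean of 4.26 ± 0.961 and a stiff mean of 4.44 ± 0.478 (SD over 3 libraries). Together the 2 genes made up 11.65, 14.38 and 19.90 FPKM at 2 kPa and 124.87, 109.74 and 102.71 FPKM at 25 kPa. The ratio of the mean sums was 7.34, a measure that rests less on how shared reads were divided between SAA1 and SAA2. The pair held 0.00499% to 0.00844% of all FPKM in a soft library and 0.0417% to 0.0539% in a stiff library.

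SAA2-SAA4, the transcript that runs from SAA2 into SAA4, was measured at 0.43, 0.44 and 0.84 FPKM at 2 kPa and at 1.56, 2.19 and 1.17 FPKM at 25 kPa. The libraries did not overlap, but the difference of 0.74 (SE 0.21, log2(FPKM + 1)) did not pass the threshold (limma, Benjamini-Hochberg adjusted p = 0.258). Because this gene shares exons with SAA2, its values are not an independent measurement of the locus. Its FPKM relative to that of SAA2 was 0.195 ± 0.0567 in the soft and 0.0791 ± 0.0243 in the stiff libraries (SD over 3 libraries). SAA4 was not among the genes of the expression table, and the expression of SAA3P was not analysed here.

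Among all 8529 genes, the shift moved SAA1 from the upper part of the table to near its top. By mean FPKM, SAA1 was number 1900 at 2 kPa, with 77.7% of genes below it, and number 398 at 25 kPa, with 95.3% below it. SAA2 was number 4021 at 2 kPa, close to the middle of the table, and number 1329 at 25 kPa. Library by library, SAA1 ranked between number 1489 and number 2214 in the soft libraries and between number 354 and number 419 in the stiff libraries. SAA2 was between number 3506 and number 4635 in the soft libraries and between number 1135 and number 1536 in the stiff libraries.

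By log2(FPKM + 1) difference, SAA1 and SAA2 ranked first and second of all genes, which is close to how they were chosen. The next in order were LMNB1 (2.05), a lamin of the nuclear envelope, PPME1 (1.89), a methylesterase of protein phosphatase 2A, and MSX1 (1.74), a homeobox transcription factor. Those 3 differed in how firmly they were measured. PPME1 and MSX1 rose past the threshold (limma, adjusted p = 0.000547 and 0.00121), whereas LMNB1 ran from 0.42 to 10.63 FPKM within the soft libraries (adjusted p = 0.309). CTGF (1.58), PSIP1 (1.49), CYR61 (1.41), ANKRD1 (1.35) and NR2F2 (1.31) completed the first 10. CTGF, CYR61 and ANKRD1 are known targets of the YAP and TAZ coactivators, and ANKRD1 alone of these rose past the threshold (limma, adjusted p = 0.00546). The ANKRD1 call was lost without 25 kPa replicate 2 (adjusted p = 0.0583) and with a replicate block (0.0861), and those of PPME1 and MSX1 held in all 15 settings. At that threshold 10 of 8529 genes were called in either direction (0.117%), SAA1 and SAA2 among them, and nothing is read from that membership because the same contrast chose them.

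Among the 5808 genes with a mean of at least 1 FPKM, a linear ratio of mean FPKM of 2 or more was found for 103 genes, of 4 or more for 5 genes and of 6 or more for 3 genes. SAA1 (7.43) and SAA2 (6.99) were number 2 and number 3 by that ratio among these genes, and number 5 and number 8 among all 8529. The first was MASTL, a mitotic kinase named after its values were seen, with a ratio of 7.59 between 0.29 and 2.2 FPKM. By the difference in FPKM itself, SAA1 ranked number 89 and SAA2 number 232.

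**Figure D2:**
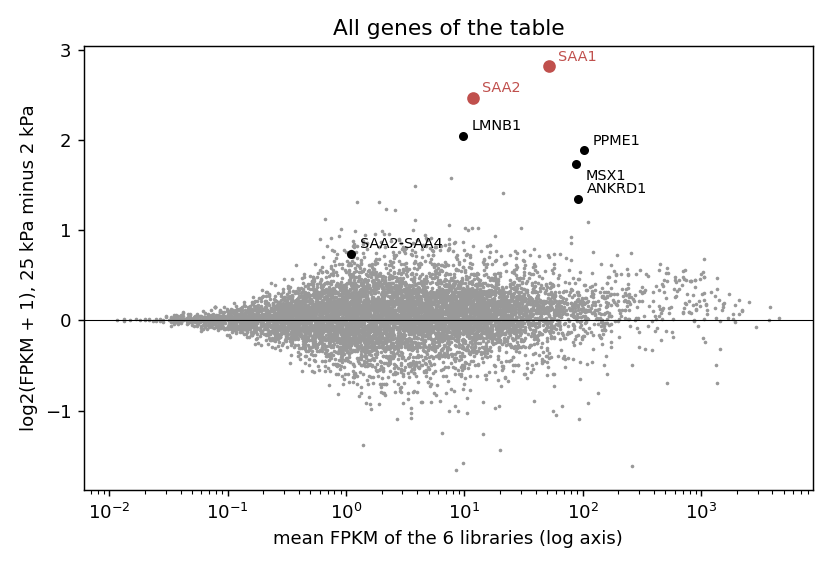
Log2(FPKM + 1) difference, 25 kPa minus 2 kPa, against the mean FPKM (log axis) of each of the 8529 genes, with SAA1, SAA2, SAA2-SAA4, LMNB1, PPME1, MSX1 and ANKRD1 named. SAA1 at 2.82 and SAA2 at 2.47 lie above every other gene, the next being LMNB1 at 2.05.

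Genes of like level are given as a setting for the pair, which was chosen by its difference and so had to lie beyond most of them. There were 749 other genes whose mean FPKM lay within 2-fold of that of SAA1 (51.9 FPKM), and their log2 differences ran from −1.09 to 1.89 with a median of 0.10. The 5 genes nearest to SAA1 in level were MT1X, a metallothionein (−0.36), the kinase MAPKAPK3 (−0.42), the mitochondrial ribosomal protein gene MRPL49 (0.06), ATP6AP2, an accessory subunit of the vacuolar proton pump (0.05), and FAM83D, a mitotic spindle protein gene (0.70). None of those 5 passed the threshold. For SAA2 (11.9 FPKM), 1848 other genes were of like level, with log2 differences from −1.66 to 2.05.

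The soft libraries were the more variable ones for both genes. The coefficient of variation of SAA1 was 27.9% at 2 kPa, where 92.1% of the genes of like level varied less, and 8.19% at 25 kPa, where 34.0% varied less. SAA2 varied by 31.9% at 2 kPa and 18.5% at 25 kPa, with 86.9% and 70.7% of its genes of like level below it. The spread at 2 kPa came with an order that both genes shared, lowest in replicate 1 and highest in replicate 3. At 25 kPa both were highest in replicate 1 and lowest in replicate 3.

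Likeness of profile was measured as the root-mean-square distance between log2(FPKM + 1) values, each gene centred and scaled over the 6 libraries, so that size of change plays no part. SAA1 and SAA2 were 0.122 apart, and of 5806 other genes 1 was nearer to SAA1 and 2 were nearer to SAA2. Both were chosen by their step between the stiffness levels, which carries most of a scaled profile, and they share sequence. Their nearness is therefore a description, and shared control was not tested. The 5 genes nearest to SAA1 were ARL6IP1 (0.105), a shaper of the endoplasmic reticulum, ALDH9A1 (0.137), an aldehyde dehydrogenase, SYT13 (0.162), a synaptotagmin, MOAP1 (0.164), a modulator of apoptosis, and PPME1 (0.171). Those nearest to SAA2 were RND3 (0.104), a small GTPase, ALDH9A1 (0.118), GABARAPL1 (0.124), an autophagy protein gene, CXCR4 (0.135), the receptor of the chemokine CXCL12, and PPME1 (0.149). PPME1 and ALDH9A1 stood in both lists.

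In size all of these genes differed less than the pair, with PPME1 the nearest at a log2 difference of 1.89. ALDH9A1, for example, was measured at 22.33, 22.88 and 22.62 FPKM at 2 kPa and 26.74, 26.34 and 26.33 FPKM at 25 kPa, a log2 difference of 0.22. CXCR4 was measured at 16.79, 20.14 and 22.54 FPKM at 2 kPa and 43.08, 44.64 and 35.48 FPKM at 25 kPa, a log2 difference of 1.02 (limma, adjusted p = 0.056, not past the threshold). RND3 differed by 1.06 (adjusted p = 0.0719). Of the 8 genes in these 2 lists, PPME1 alone passed it.

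**Figure D3:**
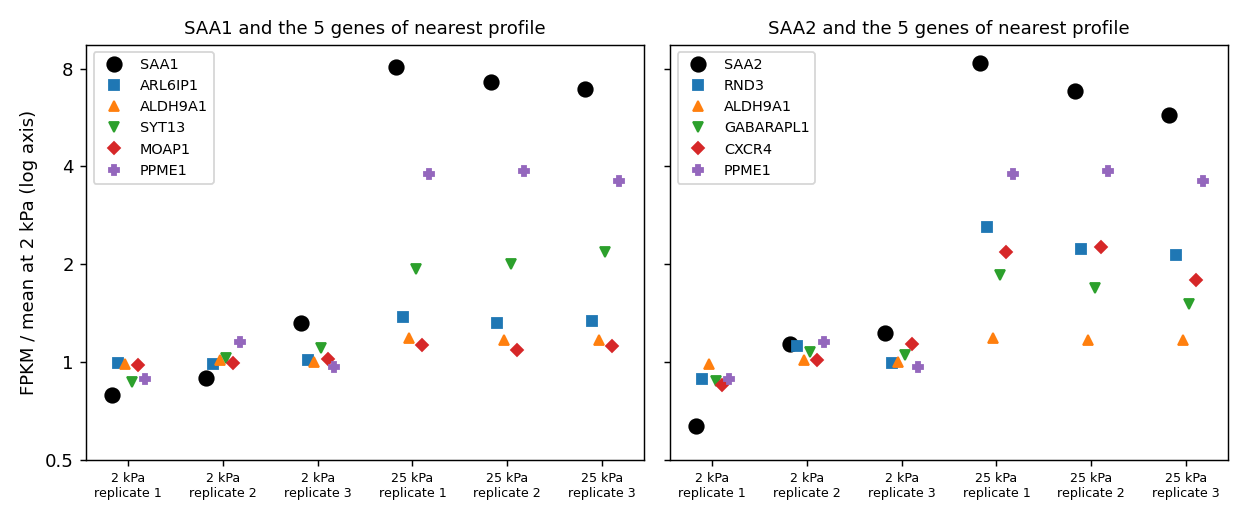
FPKM relative to the gene's mean at 2 kPa (log axis) in each of the 6 libraries, for SAA1 and SAA2 (large black circles) and for the 5 genes with the nearest profile to each. The named genes share the step between 2 kPa and 25 kPa with the pair, at ratios that run from 1.11 for MOAP1 to 3.76 for PPME1, against 7.43 for SAA1 and 6.99 for SAA2.

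The genes around the pair on chromosome 11 were read from the same fit. RefSeq lists 22 protein-coding genes within 500 kb of SAA1 or SAA2, 12 of them in the table. Leaving out the pair, the other 10 had log2 differences from −0.34 to 0.74 with a median of 0.25, beside a median of 0.05 over all genes. By limma 0 of the 10 passed the adjusted threshold, and 4 had an unadjusted p under 0.05, all with higher values at 25 kPa, where 6.96% of all genes did. They were SAA2-SAA4 (0.74), HPS5 (0.51), a lysosome-related organelle gene, SAAL1 (0.33), a gene named for its likeness to serum amyloid A, and TSG101 (0.28), a part of the endosomal sorting machinery. The background moved with the scaling. With FPKM rescaled to equal library sums 297 genes, rather than 594, were higher at that p, and the median over all genes was −0.02. The count of 4 was not taken under that scaling. SAA2-SAA4 shares exons with SAA2 and is not independent of the pair. Without it the highest difference was that of HPS5. LDHA, the lactate dehydrogenase of glycolysis, differed by 0.22 and GTF2H1, a subunit of transcription factor IIH, by 0.34. TMEM86A was lowest at −0.34.

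**Figure D4:**
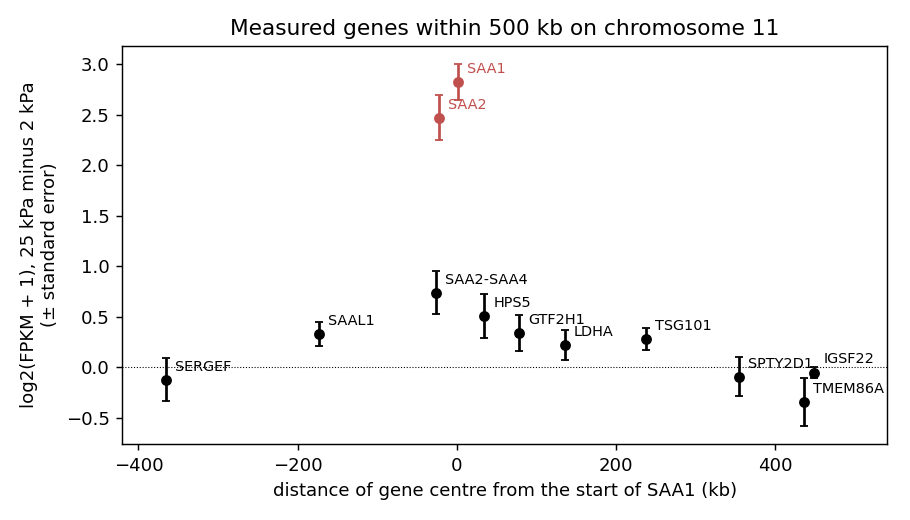
Log2(FPKM + 1) difference, 25 kPa minus 2 kPa, of the 12 measured protein-coding genes within 500 kb of SAA1 or SAA2, against their distance in kb. SAA1 (2.82) and SAA2 (2.47) stand above the other 10, which lie between −0.34 and 0.74. The highest of these is SAA2-SAA4, which shares exons with SAA2.

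The pathways that lead to and from serum amyloid A were described by 9 gene lists, written without SAA1 and SAA2, which hold 310 genes, 145 of them in the table. Many were listed low. A mean of at least 1 FPKM was reached by 10 of 21 acute-phase, 8 of 12 upstream and 10 of 20 relay genes. It was reached by 16 of 22 promoter factors, 14 of 24 NF-kB targets and 19 of 22 STAT3 targets. For receptors and partners it was 11 of 13, for breakdown and amyloid 11 of 17 and for host defence 7 of 8. On log2(FPKM + 1) the lower genes appear to change less than they do, so their differences near 0 say little. Across these 145 genes the median log2 difference was −0.02, and by limma 1 gene, an acute-phase gene with lower values at 25 kPa, passed the adjusted threshold. That count of 1 became 0 under quantile normalisation, without a variance trend, with a replicate block, and when 2 kPa replicate 1 or 2 or 25 kPa replicate 1, 2 or 3 was left out. At an unadjusted p under 0.05, 8 genes (5.52%) had higher and 10 (6.90%) lower values at 25 kPa, beside 6.96% and 3.19% of all genes. That split moved with the scaling. With FPKM rescaled to equal library sums it was 4 higher and 15 lower, with quantile normalisation 8 and 21, and with median centring 8 and 17, while the share of higher among all genes at that p fell from 68.6% to 42.7%, 51.1% and 49.9%.

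Other acute-phase proteins came first, since SAA1 and SAA2 belong to that response. Of 45 listed, 21 were in the table, with 11 higher and 10 lower and a median log2 difference of 0.01. By limma 1 of the 21 passed the adjusted threshold, with lower values at 25 kPa. ITIH3, an inter-alpha-trypsin inhibitor chain, differed by 0.48 and lipocalin LCN2 by 0.43, neither past the threshold (limma, adjusted p = 0.347 and 0.409). LCN2 was measured at 16.65, 16.66 and 13.82 FPKM at 2 kPa and 25.54, 17.27 and 22.26 FPKM at 25 kPa, so that it did not overlap but came close. The ferritin light chain FTL, the most abundant of the list, differed by 0.10. Non-overlapping libraries were found for 3 genes with higher and 3 with lower values, beside 11.2% and 4.78% of all genes.

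The signals that induce serum amyloid A were next. Of 37 upstream cytokines and receptors 12 were in the table, 6 higher and 6 lower, with 0 past the adjusted threshold by limma. At an unadjusted p under 0.05, 1 was lower, beside 3.19% of all genes. That gene was IL11, a cytokine of the interleukin-6 family, at 6.37, 4.14 and 1.81 FPKM at 2 kPa and 1.5, 1.93 and 1.81 FPKM at 25 kPa (log2 difference −0.79, adjusted p = 0.484). The groups overlapped, because soft replicate 3 was as low as the stiff libraries. IL6ST, the shared receptor chain of that family, differed by 0.28 and TNFRSF1A, a receptor of tumour necrosis factor, by −0.35. In the relay from these receptors to NF-kB and STAT3, 20 of 35 genes were in the table, 10 higher and 10 lower, with 0 past the adjusted threshold by limma and 0 at an unadjusted p under 0.05. Its largest difference was that of the kinase IRAK1 (−0.71, adjusted p = 0.563), and TAB2, an adaptor of the kinase TAK1, was at 0.39 (adjusted p = 0.495). The interleukin genes IL1A, IL1B and IL6 and the receptor genes IL1R1 and IL6R were not among the 12 measured upstream genes. Nor were MYD88, IKBKB, JAK1 and JAK2 among the 20 measured relay genes, so the counts do not cover these central members.

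Of the transcription factors that bind serum amyloid A promoters, 22 of 37 were in the table, 9 higher and 13 lower, with 0 past the adjusted threshold by limma and 0 at an unadjusted p under 0.05. The AP-1 members JUNB (−0.49), JUN (−0.53) and FOS (−0.43) had the highest levels of the list, and their libraries overlapped widely. CEBPD, a C/EBP factor of the acute phase, differed by −0.31. CEBPB (−0.21) and STAT3 (0.01) were named after their values were seen, and STAT3 was listed at only 0.43 FPKM at both stiffness levels. RELA and NFKB1, which encode NF-kB subunits, were not among the 22, so the counts do not cover them.

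Target genes of the same pathways were then set beside the pair. Of 42 NF-kB targets 24 were in the table, 11 higher and 13 lower, with 0 past the adjusted threshold by limma. At an unadjusted p under 0.05, 2 were higher and 4 lower, beside 6.96% and 3.19% of all genes. The counts over the lists moved with the scaling, as given above. Among the lower 4 were NFKBIA, the inhibitor of NF-kB that NF-kB itself induces (−0.45, adjusted p = 0.457), and IER3, an early response gene (−0.40, adjusted p = 0.356). CCL2 (−0.31) and GADD45B (−0.39) were the others. The 2 higher were LCN2 (0.43) and BIRC2 (0.48, adjusted p = 0.421), with BIRC2 named after its values were seen. Of these genes, picked by that p, NFKBIA alone had overlapping libraries. Over all 24, non-overlapping libraries were found for 2 genes with higher and 4 with lower values, beside 11.2% and 4.78% of all genes. IER3 was measured at 49.91, 56.36 and 62.89 FPKM at 2 kPa and 37.58, 48.64 and 41.55 FPKM at 25 kPa, without overlap. Of 34 STAT3 targets 22 were in the table, 11 higher and 11 lower, with 0 past the adjusted threshold by limma. At an unadjusted p under 0.05, 3 were higher, beside 6.96% of all genes. They were BIRC5, the apoptosis inhibitor survivin (0.66, adjusted p = 0.113), TGM2, a transglutaminase (0.99, adjusted p = 0.325), and the kinase PIM1 (0.47, adjusted p = 0.372). SOCS3, the feedback inhibitor of STAT3 signalling, named after its values were seen, differed by −0.14.

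Downstream of the secreted protein, 13 of 40 receptors and lipoprotein partners were in the table, with a median of 0.08 and 0 past the adjusted threshold by limma. At an unadjusted p under 0.05, 1 of the 13 was higher, the apolipoprotein APOL1 (0.54), beside 6.96% of all genes. APOE differed by −0.43 and SCARB1, a receptor of high-density lipoprotein that also takes up serum amyloid A, by −0.02. Of 29 genes for its breakdown and for amyloid, 17 were in the table, with a median of −0.09 and 0 past the adjusted threshold by limma. At an unadjusted p under 0.05, 3 of the 17 had lower values at 25 kPa, beside 3.19% of all genes, and the count of lower values over the lists moved with the scaling as given above. They were the membrane metalloproteinase MMP14 (−0.41) and the cathepsins CTSB (−0.42) and CTSD (−0.46). Of 42 epithelial host-defence genes 8 were in the table, with 0 past the adjusted threshold by limma. At an unadjusted p under 0.05, 2 were higher, beside 6.96% of all genes. They were LCN2 and BPI, a protein that binds bacterial endotoxin (0.33). DEFA5, a defensin of Paneth cells, ran from 18.87 to 55.29 FPKM at 2 kPa and from 22.07 to 67.10 FPKM at 25 kPa, and the groups overlapped.

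**Figure D5:**
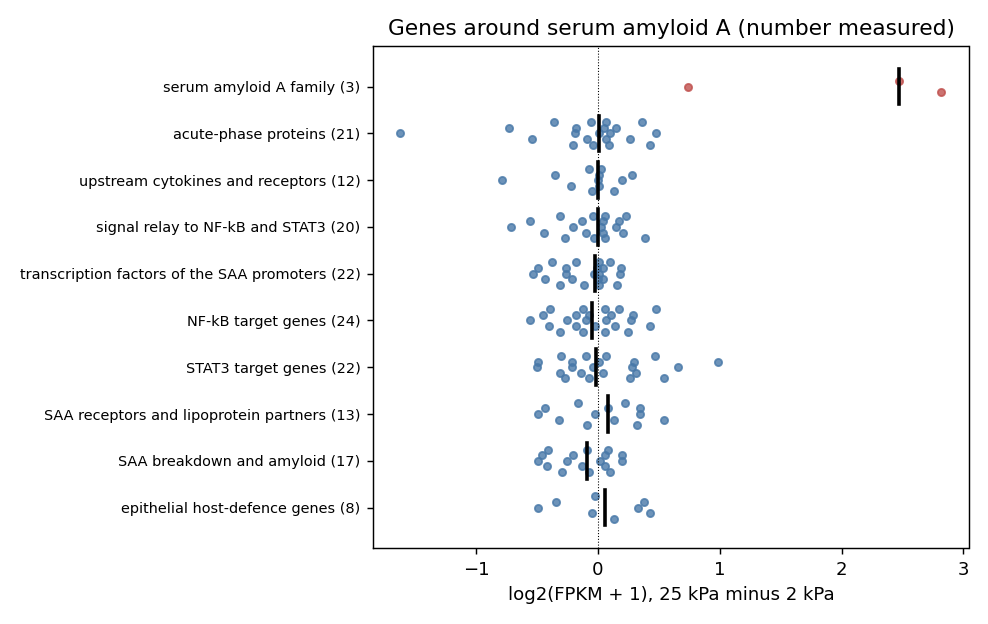
Log2(FPKM + 1) difference, 25 kPa minus 2 kPa, of each measured gene of the 9 pathway lists, 1 point for each gene and a bar at each list's median, with the 3 serum amyloid A genes on a line of their own (SAA2-SAA4 at 0.74, SAA2 at 2.47, SAA1 at 2.82). The medians of the 9 lists lie between −0.09 and 0.08, and the highest single gene of the lists is TGM2 at 0.99. The pair was chosen by its difference, so its distance from the lists was fixed by that choice.

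Markers of the labelled cells and of other sources of serum amyloid A were read beside the pair. Of 16 colon epithelium markers 10 were in the table, and KRT18 (2992 and 2875 FPKM at 2 and 25 kPa), KRT19 (1562 and 1132 FPKM) and EPCAM (74.2 and 85.0 FPKM) were among the most abundant of them. Of the 10, 2 had higher and 8 lower means at 25 kPa, with a median log2 difference of −0.16, and 3 (KRT19, CDX2 and ASCL2) had lower values without overlap, beside 4.78% of all genes. By limma 0 of the 10 passed the adjusted threshold and 2, CDX2 and ASCL2, were lower at an unadjusted p under 0.05, beside 3.19% of all genes. CDX2, an intestinal transcription factor, was measured at 0.57, 0.79 and 0.67 FPKM at 2 kPa and 0.31, 0.27 and 0.07 FPKM at 25 kPa (−0.47, limma, adjusted p = 0.224). ASCL2, a stem cell factor of the intestine, was measured at 24.05, 25.94 and 28.49 FPKM at 2 kPa and 11.78, 16.20 and 11.62 FPKM at 25 kPa (−0.95, limma, adjusted p = 0.0759, and 0.0408 with equal library sums). Of 12 hepatocyte markers 2 were in the table, ALB and SERPINA1, and their summed level was 0.28 to 0.57 FPKM at 2 kPa and 0.37 to 0.89 FPKM at 25 kPa, with overlap. Of 12 macrophage markers 3 were in the table, with summed levels of 3.97 to 5.53 FPKM at 2 kPa and 2.53 to 3.58 FPKM at 25 kPa. Most of that sum was lysozyme, LYZ (3.54 and 2.24 FPKM), which also stands in the host-defence list, CD14 was at 1.23 and 0.53 FPKM, and FCER1G was at 0.0667 and 0.153 FPKM. By limma 0 of the 3 passed the adjusted threshold and 1, CD14, was lower at an unadjusted p under 0.05, beside 3.19% of all genes. Of 12 fibroblast markers 5 were in the table, with summed levels of 1.84 to 4.51 FPKM at 2 kPa and 4.22 to 5.05 FPKM at 25 kPa. The differences of all 5 were at or above 0, from 0.00 to 0.66 with a median of 0.16. By limma 0 of the 5 passed the adjusted threshold. The smooth muscle actin gene ACTA2 was the 1 gene higher at an unadjusted p under 0.05, beside 6.96% of all genes. ACTA2 was measured at 0.53, 1.66 and 1.33 FPKM at 2 kPa and 2.51, 2.09 and 2.44 FPKM at 25 kPa, without overlap and in the same direction as SAA1 and SAA2 (0.66, limma, adjusted p = 0.421). The part of any of these cells in the SAA1 and SAA2 levels was not tested.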

How the data were processed

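Total RNA of SW480 cells was the input for 6 sequenced libraries, 3 for each stiffness. The paper's methods describe a gel purification of small RNA for these libraries, whereas the deposited values are labelled mRNA. How this bears on the FPKM is unknown. The authors deposited 1 FPKM value per gene and library for 8529 genes, with 0 values at 0 and a lowest value of 0.01. The submitters' processing notes name HISAT, StringTie, Bowtie2, RSEM and hg18, without a role for each. The authors named DESeq2, a tool for counts, in their methods. FPKM are not counts and were tested here as log2(FPKM + 1) with limma 3.58.1 in R 4.3.3 (eBayes with a trend, two-sided, Benjamini-Hochberg over all genes, threshold 0.05). Groups came from the labels, and 0 value columns were unassigned. Low FPKM showed no common step of 1 read, so the reads behind each value are unknown (the methods give only a nominal depth and an average yield over samples) and precision rests on the spread between 3 libraries.

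Genes SAA1 and SAA2, the gene lists and the tests were chosen with earlier results of these data known. Named genes were the serum amyloid A genes, list genes past the threshold, up to 4 per list by p and 3 by level, the 10 largest positive differences, the 5 nearest to SAA1 in level, the 5 nearest to each member in profile, and neighbours within 500 kb; others are marked. The values of 1 gene that this rule names are not reported here; it stays in the counts. The settings varied were the pseudocount (0.1 or 0.01), a filter on mean FPKM (1 or more), equal library sums, quantile normalisation, median centring, no variance trend, a replicate block and each library left out. The sum of SAA1 and SAA2 was added after seeing the data. Sequences and printed coordinates came from GENCODE and neighbouring genes from RefSeq, both on GRCh38, not the build of the notes, and sequences were compared with Biopython 1.88 in Python 3.11.15. The programs were tested on simulated data.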

Additional observations from a re-analysis of the deposited data

How the results depend on the processing

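SAA1 and SAA2 kept their direction under every alternative run. SAA1 ranged from 2.68 to 3.02 (log2) and SAA2 from 2.26 to 2.84 over 15 settings, and their places by difference ran from number 1 to 5 and from number 2 to 7. SAA2 differed by 2.80 with a pseudocount of 0.1 and by 2.84 with 0.01, and with each library left out it ranged from 2.26 to 2.60. The log2 ratio of SAA1 to SAA2 differed by 0.08 between the groups, by 0.35 when taken on FPKM + 1, and from −0.11 to 0.23 with each library left out.

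The 10 genes past the threshold became 17 with a pseudocount of 0.1, 15 with 0.01, 15 with a mean of at least 1 FPKM, 15 with equal library sums, 6 without a variance trend and 3 to 11 with each library left out. The replicate numbers did not pair the libraries (correlations of same-numbered deviations 0.115, −0.267 and −0.125), and with the number as a replicate block 3 genes passed.

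Of the 13 list medians, those of NF-kB targets, STAT3 targets, promoter factors, upstream cytokines with their receptors, and SAA receptors with lipoprotein partners moved by less than the spread between libraries under every alternative run. The acute-phase median was −0.04 (pseudocount 0.01), −0.07 (equal sums), −0.07 (quantile normalisation) and −0.04 (median centring), and −0.07 to 0.07 with each library left out. The signal relay ran from −0.10 to 0.12, breakdown and amyloid from −0.19 to −0.04 (−0.25 with a mean of at least 1 FPKM), and host defence from −0.10 to 0.08 (−0.05 with equal sums). With pseudocounts of 0.1 and 0.01 the medians were 0.23 and 0.24 for hepatocyte, −0.65 and −0.67 for macrophage, 0.46 and 0.55 for fibroblast, and −0.30 and −0.31 for colon epithelium markers. The fibroblast median was 0.46 with a mean of at least 1 FPKM, which left no hepatocyte marker, and 0.07 to 0.29 with each library left out. The cause of these moves was not tested.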
